A study of Oryza sativa with 2 samples.

Results

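The regions described here are OsWRKY11-Myc ChIP-seq peaks on the short arms of rice chromosomes 4 and 10. A peak was taken when its summit, the base with the highest ChIP coverage, lay from 1000000 to 8700000 on chromosome 4 or from 1000000 to 7200000 on chromosome 10. This left out the terminal 1 Mb and a window around the centromere, used no signal value, and gave 244 of the 6672 deposited peaks. Of these, 129 lay on chromosome 4 and 115 on chromosome 10. They were set beside 704 peaks on the long arms of the same chromosomes, 470 between 10700000 and 34500000 on chromosome 4 and 234 between 9200000 and 22180000 on chromosome 10.

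The 2 libraries were an anti-Myc ChIP and an input (DNA from the same kind of shoots, sequenced with no antibody), each made from shoots of transgenic pUbi:OsWRKY11-Myc rice fixed in 1% formaldehyde. In that line a ubiquitin promoter drives the tagged factor, so it was over-expressed in both libraries, and no library from untagged plants was analysed here. The sample titles read 30D and the design text gives plants of 3 weeks. There was 1 library per group and hence no replicate check: no difference between arms was tested, and intervals cover counting error only.

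In stained rice chromosomes at meiosis the short arms of 4 and 10 are known as largely condensed, heterochromatic arms rich in repeats and poor in active genes, while the long arms are mostly euchromatic. WRKY factors bind DNA through a WRKY domain and recognise the W-box, a short element found in many promoters. OsWRKY11 belongs to this family, and the series concerns its part in heading, the emergence of the panicle. The comparison of arms asks whether the tagged factor was enriched at sites in condensed as well as in open arms. The peak list holds no chromatin mark, so whether the short arms were heterochromatic in these shoots was not tested. Peaks were not assigned to genes, and no sequence under them was read, because no genome of the list's build was used here.

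The short arms held listed peaks at a density close to that of the long arms. Of the peaks counted, 201 of 244 on the short arms and 602 of 704 on the long arms had a q (the false discovery rate) above 0.05. Densities are per Mb of coordinates, and the length on which reads could be placed was not measured. There were 17.6 peaks per Mb on the short arms (95% exact Poisson interval 15.4 to 19.9) and 19.1 per Mb on the long arms (17.8 to 20.6). The ratio of short to long was 0.917, with an exact interval of 0.790 to 1.06 that includes equal density. A 66.7 kb stretch of the chromosome 10 short arm holds 19 peaks; it was singled out after its values were seen and is described further on. Without it the short arms had 16.3 per Mb and the ratio was 0.850 (0.728 to 0.989), which leaves equal density out. No dense stretch was taken out of the long arms, so this ratio is lower by construction and does not show a lower density on the short arms. For peaks with q of 0.05 or below the ratio, with the stretch kept, was 1.12 (0.762 to 1.61). By chromosome, the short arm of 4 held 16.8 per Mb (14.0 to 19.9) and its long arm 19.7 (18.0 to 21.6). The short arm of 10 held 18.5 per Mb (15.3 to 22.3) and its long arm 18.0 (15.8 to 20.5). These intervals take each peak as independent and are too narrow where peaks lie close together.

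Among all listed peaks, more per Mb lay towards the centromere along the short arms, and along the long arms the order was the other way. On the short arm of chromosome 4, the 3.85 Mb nearer the centromere held 75 peaks (19.5 per Mb, 15.3 to 24.4) and the outer 3.85 Mb held 54 (14.0 per Mb, 10.5 to 18.3). On the short arm of chromosome 10, the inner 3.10 Mb held 70 peaks (22.6 per Mb, 17.6 to 28.5) and the outer 3.10 Mb held 45 (14.5 per Mb, 10.6 to 19.4). The 19-peak stretch lies in that inner part, and without it the inner part held 51 peaks (16.8 per Mb, 12.5 to 22.1). The intervals of inner and outer parts overlapped on each arm. On the long arm of chromosome 4, the 7.70 Mb next to the centromere window held 98 peaks (12.7 per Mb, 10.3 to 15.5) and the outermost 7.70 Mb held 210 (27.3 per Mb, 23.7 to 31.2). The corresponding 6.20 Mb stretches of the long arm of chromosome 10 held 94 (15.2 per Mb, 12.3 to 18.6) and 127 (20.5 per Mb, 17.1 to 24.4). Peaks with q of 0.05 or below did not follow this order throughout. On the short arm of chromosome 4 the inner and outer parts held 10 and 10 of them. On the short arm of chromosome 10 they held 14 and 9, and 9 of the 14 lay in the 19-peak stretch. The centromere-side and outer long-arm stretches held 16 and 31 on chromosome 4, and 15 and 16 on chromosome 10.

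For all listed peaks, the direction of the comparison therefore depended on which stretch of the long arm was used. Against the centromere-side stretches of equal length, the short arms had 17.6 peaks per Mb and the long arms 13.8, a ratio of 1.27 (1.05 to 1.54). Against the outer stretches, the long arms had 24.2 peaks per Mb and the ratio was 0.724 (0.612 to 0.856). Both stretches were chosen after the density along the arms had been seen. In whole windows of 1 Mb counted from the centromere side, the short arm of chromosome 4 held 8 to 24 peaks (median 17 over 7 windows) and its long arm 9 to 35 (median 17 over 23). The short arm of chromosome 10 held 12 to 29 (median 17.5 over 6 windows) and its long arm 13 to 28 (median 16 over 12). The window with 29 contains the 19-peak stretch and held 10 without it, and the range over the 6 windows was then 10 to 22.

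**Figure D1:**
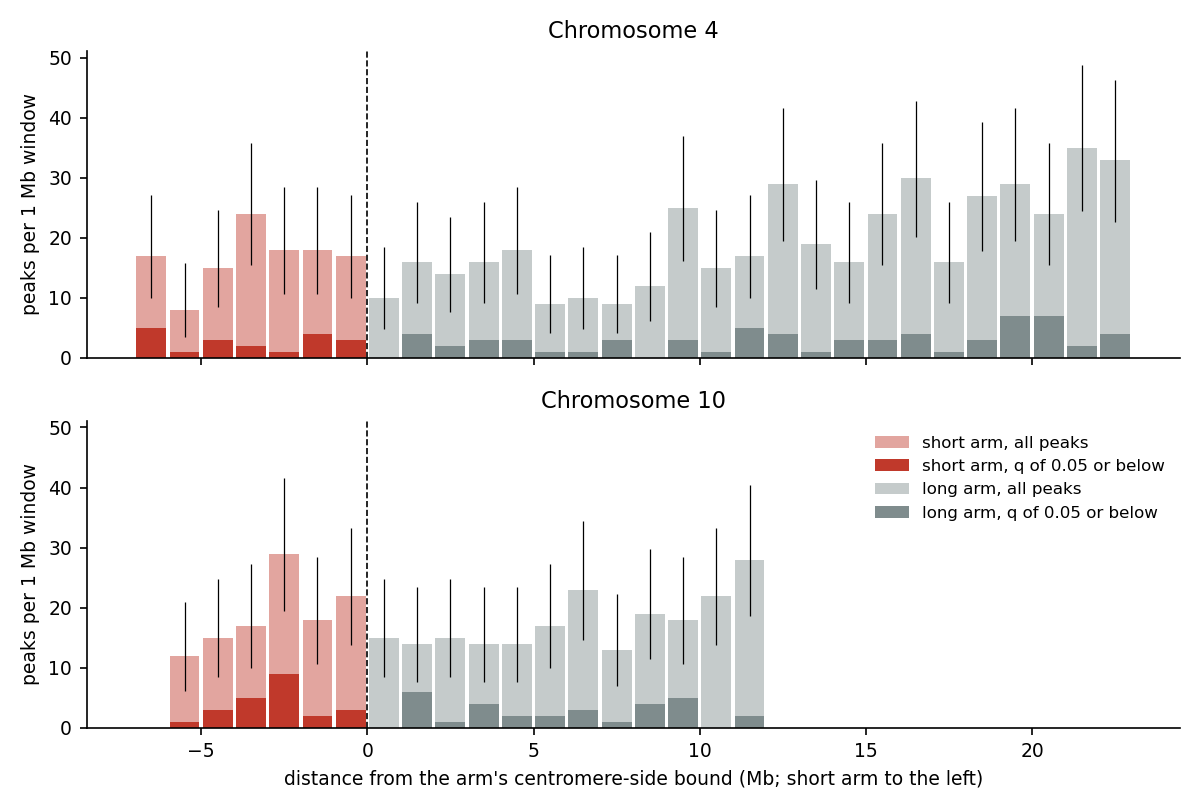
Number of peaks in each whole 1 Mb window (vertical axis) against distance from the arm's centromere-side bound in Mb (horizontal axis), with short arms left and long arms right of the dashed line. Pale bars count all peaks, dark bars those with q of 0.05 or below, and black lines are 95% exact Poisson intervals of the pale bars; the highest short-arm window, on chromosome 10, holds 29 peaks, 19 of them in one stretch, and the long arm of chromosome 4 climbs to 35.

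Each peak carries a pileup (the number of ChIP fragments over the summit) and a fold (that pileup plus 1, divided by the background plus 1). Background is the number of fragments expected there from the input. Fold and q are the authors' values. The folds of the listed short-arm peaks were much like those of the rest. Their median fold was 2.39 (order-statistic interval 2.29 to 2.39), against 2.38 (2.31 to 2.39) on the long arms and 2.39 over the whole list. The quartiles were 2.24 and 2.54 on the short arms and 2.2 and 2.54 on the long arms. The median pileup was 15 fragments on the short arms and 15 on the long arms. The list starts at a pileup of 13 and a fold of 2.00. That cut leaves the medians little room to differ, so they say little about enrichment over the arms as a whole.

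**Figure D2:**
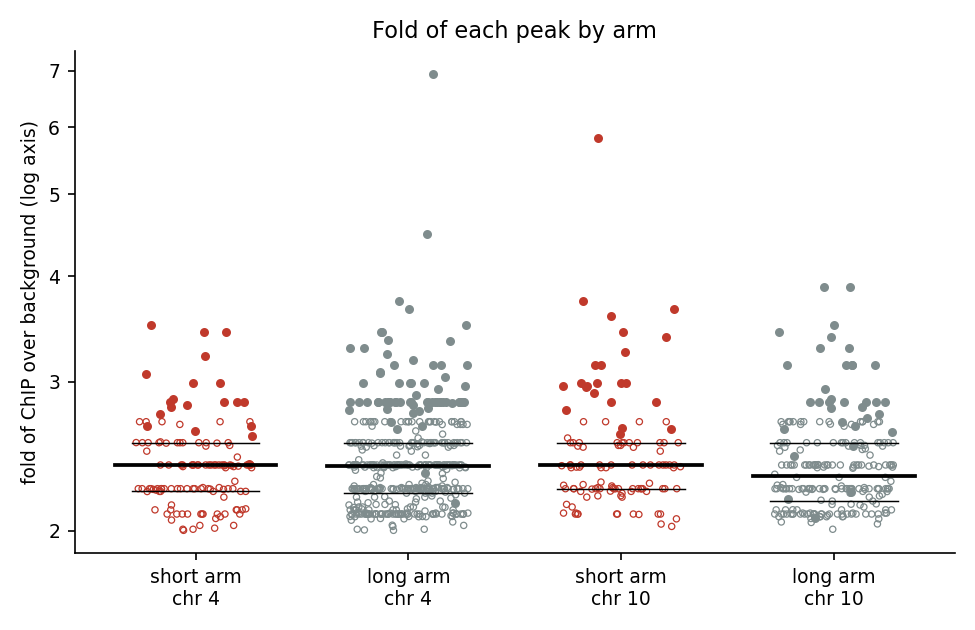
Fold of ChIP over background (vertical log axis) of each peak on the 4 arms, with filled points at q of 0.05 or below and open points above it. Thick lines are medians and thin lines quartiles; the medians run from 2.32 to 2.39, and points share levels because pileups are whole numbers over a mostly constant background.

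Of the 244 short-arm peaks, 43 had a q of 0.05 or below (17.6%, Wilson interval 13.4 to 22.9%), as did 102 of the 704 long-arm peaks (14.5%, 12.1 to 17.3%) and 15.8% of the whole list. The difference was 3.13 percentage points, with an interval of -1.97 to 8.93 that includes 0, and without the 19-peak stretch it was 0.622 points (-4.33 to 6.41). The short arm of chromosome 4 had 20 such peaks of 129 (15.5%) and its long arm 68 of 470 (14.5%). The short arm of chromosome 10 had 23 of 115 (20%) and its long arm 34 of 234 (14.5%). At the stricter q of 0.01 there were 27 short-arm peaks (11.1%) and 50 long-arm peaks (7.1%), against 9.05% of the list, a difference of 3.96 points (-0.0102 to 8.82). There the short arm of chromosome 10 kept 18 of 115 (15.7%) and its long arm 19 of 234 (8.12%), a difference of 7.53 points (0.592 to 15.8). Of those 18, 7 lay in the dense stretch described further on, and without it 11 of 96 remained (11.5%). The 43 short-arm peaks at q of 0.05 or below had 18 to 38 fragments and folds of 2.40 to 5.83, with a median fold of 2.97. The other 201 had 13 to 27 fragments and folds of 2.00 to 2.69. No peak of the whole list with fewer than 18 fragments passed q, so this limit is not particular to the short arms.

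Folds of 3 or more were found at 14 short-arm peaks (5.74%, 3.45 to 9.40%) and 32 long-arm peaks (4.55%, 3.24 to 6.35%), with 4.48% in the whole list. The difference was 1.19 points (-1.72 to 5.08), and its sign was the opposite without the 19-peak stretch (-0.545, -3.15 to 3.12) and on chromosome 4 alone (-0.379, -3.52 to 4.72). All 14 short-arm peaks also passed q, as did all 32 on the long arms and all 299 in the whole list. Folds of 4 or more were found at 1 short-arm peak (0.410%) and 2 long-arm peaks (0.284%), against 0.629% of the list.

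The strongest short-arm peak lay on chromosome 10 at 3165505 to 3165768. Its summit was covered by 38 ChIP fragments where 5.69 were expected, so its fold was 5.83 (4.17 to 7.95 from the exact Poisson limits of the pileup). Its q was 4.66e-16 and its width 264 bp. The nearest other summit was 20272 bp away, just over the 20 kb gap used for the groups described further on. With gaps of at most 50 kb it was the first of 6 grouped peaks past q, which ended at 3231295. Its interval overlapped that of the strongest long-arm peak, on chromosome 4 at 31360580 to 31360805, whose fold was 6.94 (5.33 to 8.90) from 60 fragments. It also overlapped those of the strongest long-arm peaks of chromosome 10, at 13068471 to 13068764 and 14689675 to 14689979, whose folds were both 3.89 (2.57 to 5.67) from 25 fragments.

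The other short-arm peaks with the highest folds on chromosome 10 lay between 2.99 and 3.74. The peak at 5124097 to 5124639 reached 3.74 (2.45 to 5.49) with 24 fragments. The peak at 7159441 to 7159674, the last before the centromere window, reached 3.59 (2.33 to 5.31) with 23 fragments. Of the 10 highest, 5 fell within one 66.7 kb stretch described further on, and the peak at 3215442 to 3215922 (fold 3.14) fell in another group. The peak at 6809579 to 6809882 (fold 3.25) lay in neither. The last place was shared by 4 peaks of 19 fragments and fold 2.99, with summits at 1908836, 2829157, 2977263 and 5413313, whose nearest other summits were 111253, 11920, 19762 and 5664 bp away.

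On chromosome 4 the highest short-arm folds lay close together and on scattered sites. The highest, 3.50 (2.29 to 5.14), was that of the peak at 7161834 to 7162078, where 24 fragments stood against 6.15 expected. Those at 4275389 to 4275635 and 5161091 to 5161367 reached 3.44 (2.21 to 5.13), each with 22 fragments. The peak at 1147993 to 1148258 followed with a fold of 3.22 (2.05 to 4.84) and that at 5744057 to 5744618 with 3.07 (1.93 to 4.66). The remaining 5 of the 10 highest had 18 or 19 fragments and folds of 2.84 to 2.99, and the last place among them was shared at a fold of 2.84 with other peaks of 18 fragments. All these intervals overlapped, so the order of the peaks is not resolved at this depth. The lower limit of the fold was at least 2 for 11 of 244 short-arm peaks (4.51%, 2.54 to 7.89%) and 23 of 704 long-arm peaks (3.27%, 2.19 to 4.85%), against 3.63% of the list. Without the 19-peak stretch the short arms had 7 of 225 (3.11%).

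The bounds of the arms did not fall beside strong peaks, with 1 exception. On chromosome 4 the first summit inside was at 1024945 (fold 2.69) and the nearest outside at 999968 (2.23). At the centromere side, the last inside was at 8680008 (2.09) and the next outside at 8734051 (2.09). On chromosome 10 the first inside was at 1084634 (2.10) and the nearest outside at 776032 (2.24). The exception is the peak of fold 3.59 with its summit at 7159582, inside the bound, and the next outside was at 7223886 (2.39).

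Backgrounds on the short arms were rarely high. The most common background in the list was 5.69 fragments, the genome-wide floor; a higher value comes from more input coverage nearby. The background was above the floor at 114 short-arm peaks (46.7%, 40.6 to 53.0%) and 286 long-arm peaks (40.6%, 37.1 to 44.3%), with 42.0% in the whole list. The difference of 6.10 points had an interval of -1.07 to 13.3. At 15% or more above the floor there were 45 short-arm peaks (18.4%) and 100 long-arm peaks (14.2%), against 15.2% of the list. At 2 times the floor or more there was 1 short-arm peak (0.410%) and 8 long-arm peaks (1.14%), against 2.01% of the list. That difference of -0.727 points had an interval of -1.87 to 1.23.

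That 1 short-arm peak, on chromosome 10 at 2957399 to 2957598, carried 27 fragments where 11.7 were expected. Its fold was 2.2 (1.48 to 3.17) and its q 0.0596. The next highest backgrounds on the short arms were 10.7 fragments on chromosome 4 at 2365859 to 2366369 (fold 2.06) and 9.91 on chromosome 10 at 3698011 to 3698272 (fold 2.2). The long arms reached 118 fragments on chromosome 10 at 10790507 to 10791307, where 246 ChIP fragments gave a fold of 2.07 (1.82 to 2.34), and 46.7 on chromosome 4 at 27510530 to 27510724 (fold 2.16). Close to the former, the peaks at 10795156 to 10795474 and 10795701 to 10795962 had backgrounds of 75.1 and 73.3. Among peaks at the floor background, 18 of 130 short-arm peaks passed q (13.8%, 8.94 to 20.8%) and 59 of 418 long-arm peaks (14.1%, 11.1 to 17.8%), against 12.5% of all 3867 such peaks in the list.

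**Figure D3:**
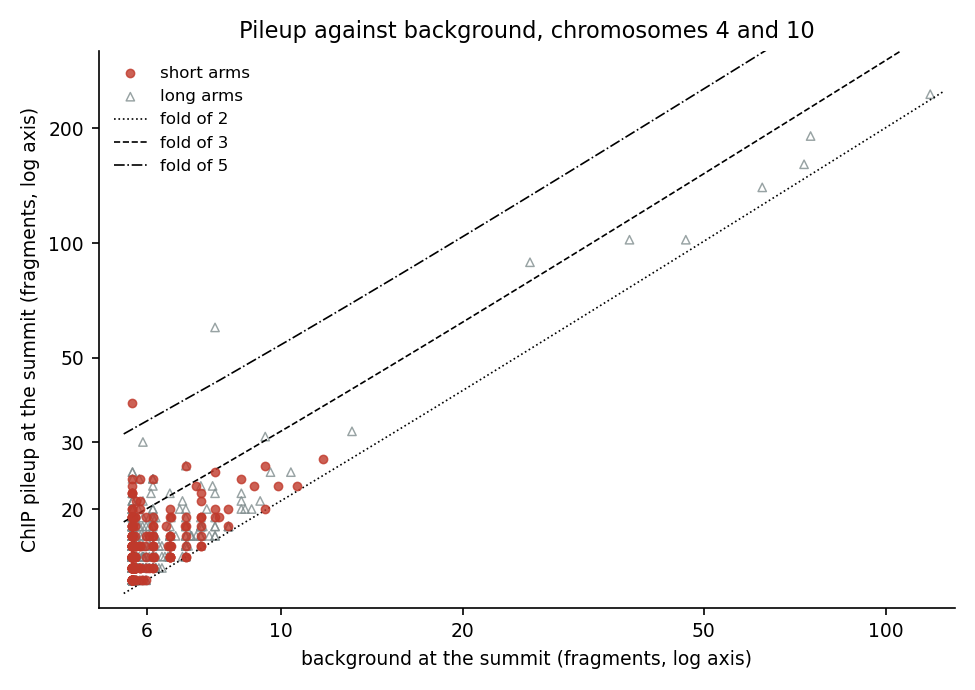
ChIP pileup at the summit (vertical, fragments, log axis) against background at the summit (horizontal, fragments, log axis) for short-arm peaks (filled circles) and long-arm peaks (open triangles), with lines at folds of 2, 3 and 5. No short-arm point lies beyond a background of 11.7 fragments, while long-arm points reach 118 along the line of fold 2.

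Close neighbours were most common on the short arm of chromosome 10, where much of their share came from the 19-peak stretch. Another summit lay within 2 kb for 27 of its 115 peaks (23.5%, 16.7 to 32.0%), against 14 of 234 on its long arm (5.98%, 3.60 to 9.79%) and 10.3% in the whole list. In the rest of that short arm it was 13 of 96 (13.5%, 8.09 to 21.8%). On chromosome 4 the same was true of 8 of 129 short-arm peaks (6.20%, 3.18 to 11.8%) and 37 of 470 long-arm peaks (7.87%, 5.77 to 10.7%). The highest share at 20 kb was on the long arm of chromosome 4. Within each chromosome the order of short and long arm at 2 kb was also found at 20 kb, on chromosome 10 only with the stretch kept. Another summit lay that near for 57 short-arm peaks of chromosome 4 (44.2%, 35.9 to 52.8%) and 285 of its long arm (60.6%, 56.2 to 65.0%), and for 64 (55.7%) and 122 (52.1%) on chromosome 10, with 56.1% in the whole list. In the rest of the chromosome 10 short arm it was 45 of 96 (46.9%, 37.2 to 56.8%). At 50 kb the short arm of chromosome 10, with the stretch kept, had 74.8% and its long arm 85.5%. Near neighbours become more common as peaks per Mb increase, and the share of the density in these values was not tested.

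**Figure D4:**
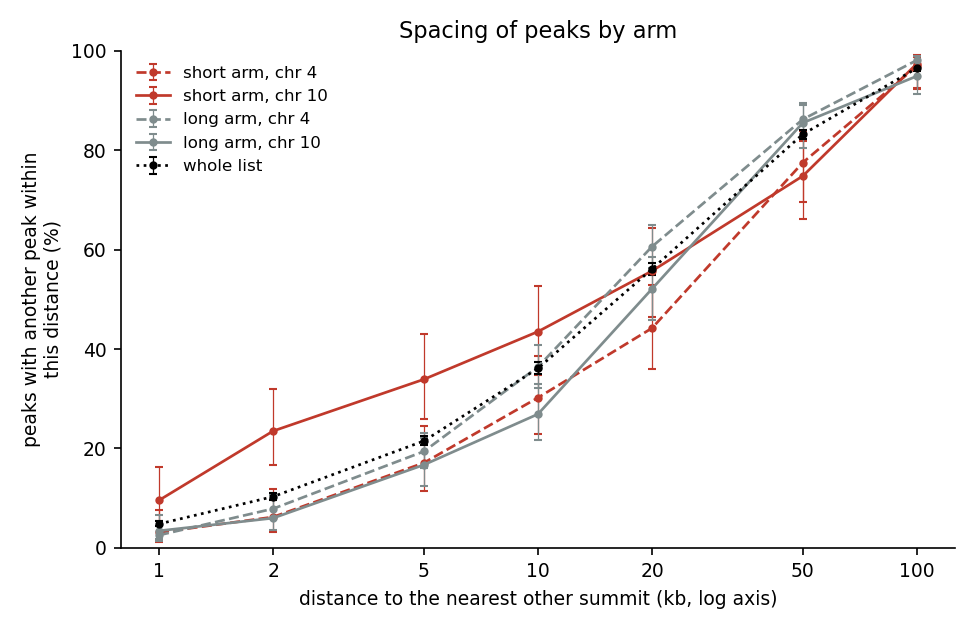
Percentage of peaks with another summit within a given distance (vertical) against that distance in kb (horizontal, log axis) for each arm and the whole list, with 95% Wilson intervals. The short arm of chromosome 10 reaches 23.5% at 2 kb, above the other arms (13.5% without the 19-peak stretch), and the lines meet near 97% at 100 kb.

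Much of this short-range grouping lay in one place. On chromosome 10, 19 peaks between 5067989 and 5134651, a stretch of 66.7 kb, followed each other with gaps between summits of at most 20 kb. They made up 16.5% of the peaks of that short arm, on 1.08% of its length. Peaks covered 13.2% of the stretch and 0.416% of the rest of the arm. The stretch was singled out after its values were seen, and it is described without a test. Its extent depends on the gap allowed. With gaps of at most 10 kb it broke up, leaving groups of 7 peaks (5067989 to 5087741) and 9 peaks (5124097 to 5134651), and with gaps of at most 50 kb it had the same 19. No window of the same length (66.3 kb between first and last summit) on any other sequence of the list held more than 17 peaks, a count reached on chromosome 11. There the median background was 4.61 times the floor, and in the densest window of chromosome 5, with 15 peaks, it was 5.04 times the floor. In that of chromosome 2, the next in number with 12 peaks, it was 1.06 times the floor. A dense group over a background near the floor is thus not particular to this arm. In the chromosome 10 stretch it was 1.08 times the floor, with a highest value of 1.39.

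Within the stretch 9 of the 19 peaks passed q, which is 39.1% of the 23 on that arm, and 5 had a fold of at least 3. Folds ran from 2.24 to 3.74 with a median of 2.64, and pileups from 15 to 26 fragments. In the rest of the arm 14 of 96 peaks passed q (14.6%) and the median fold was 2.38. The peaks of the stretch were also wide, with a median of 423 bp, against 239 bp in the rest of the arm and 231 bp in the whole list. Its widest, at 5132482 to 5133597, measured 1116 bp, with its fold of 3.44 (2.21 to 5.13) coming from 22 fragments. It was the widest peak on either short arm. The widest on the chromosome 4 short arm, at 5901936 to 5902612, measured 677 bp, and its fold was 2.24 from 14 fragments.

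The strongest members sat at the high-coordinate end of the stretch. The first 9 summits, from 5068225 to 5100393, had folds of 2.24 to 3.14, and 1 of them passed q, the peak at 5081504 to 5081964, whose 20 fragments gave a fold of 3.14 (1.98 to 4.77). The peak at 5104963 to 5105385 rose to 25 fragments over a raised background of 7.79, which left its fold at 2.96. After a gap, 9 peaks lay between 5124097 and 5134651, and 7 of these passed q. The outermost of these, at 5124097 to 5124639 and 5133863 to 5134651, had the highest folds, 3.74 (2.45 to 5.49) and 3.65 (2.39 to 5.36). Between them, the 2 that did not pass q, at 5131020 to 5131246 and at 5131874 to 5132101, were at 2.24 and 2.28 over backgrounds of 6.58 and 7.79. Folds of 3.39 and 2.78 were found at 5127120 to 5127868 and at 5128106 to 5128574. All intervals of the 19 folds overlapped.

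**Figure D5:**
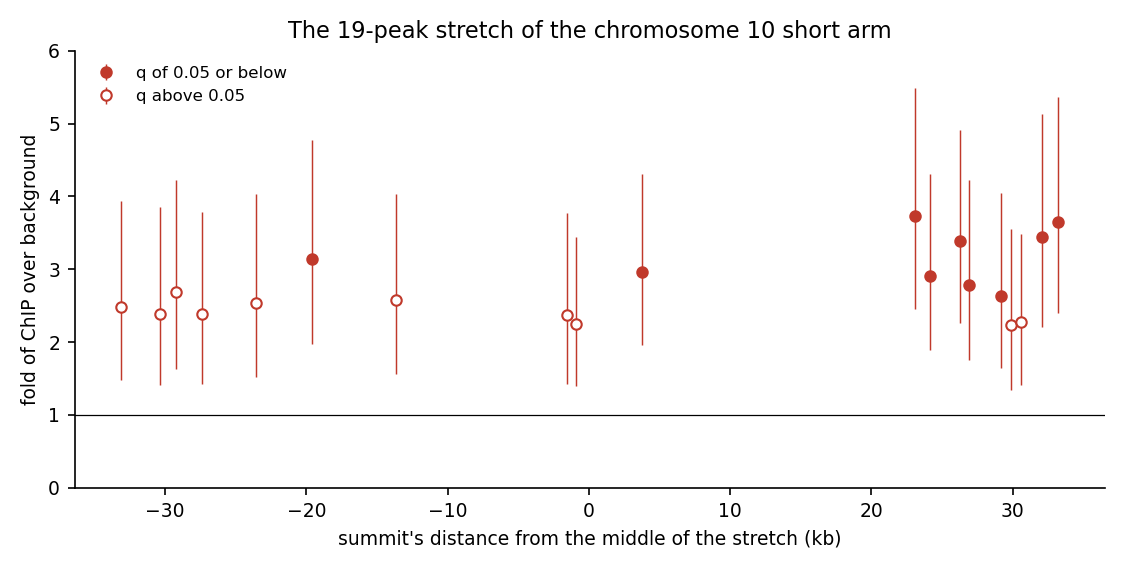
Fold of ChIP over background (vertical) with its 95% interval against the summit's distance in kb from the middle of the 66.7 kb stretch on the chromosome 10 short arm (horizontal). Filled points have q of 0.05 or below; 9 of 19 peaks do, 7 of them in the group at the right end.

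A smaller group lay on the same arm between 3209191 and 3231295. Of its 6 peaks, 5 passed q. The first 4, with 18, 19, 19 and 20 fragments at backgrounds at or barely above the floor, had folds of 2.84, 2.97, 2.97 and 3.14. The fold was 2.39 at 3228842 to 3229052, from 15 fragments, and 2.60 at the last, 3230969 to 3231295, where 24 fragments lay over 1.51 times the floor. On the chromosome 4 short arm the only group of at least 5 peaks, 6 between 7428408 and 7475326, had folds of 2.01 to 2.55, and 0 of its 6 peaks passed q. Of the peaks past q, 15 of 43 on the short arms had a neighbour past q within 20 kb (34.9%, 22.4 to 49.8%), as did 18 of 102 on the long arms (17.6%, 11.5 to 26.2%), with 23.8% in the whole list. Without the 19-peak stretch it was 7 of 34 short-arm peaks (20.6%, 10.3 to 36.8%).

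The arms also differed in the share of wide peaks, again mostly through this stretch. A width of at least 400 bp was measured for 31 short-arm peaks (12.7%, 9.10 to 17.5%) and 52 long-arm peaks (7.39%, 5.68 to 9.56%), with 8.15% in the whole list. The stretch held 11 of the 31, and without it the short arms had 20 of 225 (8.89%, 5.83 to 13.3%). The median width was 242 bp on the short arms (229 to 254) and 230 bp on the long arms (224 to 236). Of the wide peaks, 13 of 31 on the short arms (41.9%, 26.4 to 59.2%) and 11 of 52 on the long arms (21.2%, 12.2 to 34.0%) passed q, against 29.2% in the list. The stretch held 9 of those 13, and without it 4 of 20 passed (20%, 8.07 to 41.6%).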

How the data were processed

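The submitters' processing notes name MACS2 2.2.7.1, BWA 0.7.12-r1039 and Trimmomatic 0.36. Their settings, the handling of duplicates and the genome build: not given in the sources used here. From the ChIP library and its input, the authors deposited 1 peak list. Per the file headers, its columns give each peak's start, end, summit and length, its pileup (a signal value, the fragment coverage at the summit), its fold enrichment over background (a ratio value), and −log10 of its p and q values. Positions are in the list's own coordinates, counted from 1.

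With pandas 2.3.3, statsmodels 0.14.6, scipy 1.17.1, matplotlib 3.10.9 and numpy 2.4.6 under Python 3.11.15, the background was solved as (pileup + 1)/fold − 1. Poisson tails from it gave each deposited −log10 p to within 0.000336. The floor is its most common value, 5.69 fragments; read totals are not given. Backgrounds over 1.001 times the floor count as above it. No peak was filtered; the list itself starts at a pileup of 13 and a fold of 2.00. Intervals (95%) are exact Poisson for densities and pileups (background held fixed), exact conditional for density ratios, Wilson for shares, Newcombe for differences of shares and order-statistic for medians; they cover counting error only. The interval and grouping code was tested on simulated data. The peaks named are the 10 highest folds on each short arm and the 3 highest on each long arm, the highest backgrounds, the widest peaks, the summits beside the short-arm bounds, and groups of at least 4 peaks past q or at least 5 listed peaks with summit gaps of at most 20 kb. Peaks picked outside this rule are said to be. The arms and measures were chosen with earlier results of these data known.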

Additional observations from a re-analysis of the deposited data

How the results depend on the processing

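Of 46 alternatives, 32 planned and 14 added after seeing the data, 41 concern a value with an interval, and 29 of these left it within that of the reported one. The density ratio of 0.917 became 1.12 for peaks at q of 0.05 or below and 1.16 at a fold of at least 3. It became 1.27 against the long-arm stretches next to the centromere windows and 0.724 against the outer ones, with the rest of the long arms left out. Without the 19-peak stretch the ratio was 0.850 (0.728 to 0.989), an interval that no longer includes 1. Only the short arms lost a dense stretch there, which lowers the ratio by construction. The pooled difference in peaks with a neighbour within 20 kb, -8.22 points, turned to 3.24 within 10 kb, 7.1 within 2 kb and 17.2 among peaks at q of 0.05 or below. Without the stretch it turned to 2.09 within 2 kb and 2.94 at that q. It stayed below 0 within 50 kb (-9.71, -15.9 to -4.07) and, without the stretch, within 20 kb (-12.5, -19.8 to -4.98). With the stretch kept, the pool mixes 2 signs. On chromosome 4 the difference was -16.5 points (-25.8 to -6.74) within 20 kb and -1.67 (-5.79 to 4.27) within 2 kb. On chromosome 10 it was 3.52 (-7.57 to 14.3) and 17.5 (9.69 to 26.3). Without the stretch the chromosome 10 short arm had a share of 46.9% within 20 kb, below the 52.1% of its long arm. The cause was not tested. The short-arm median fold of 2.39 became 2.61 as pileup over background, and at q of 0.05 or below it became 2.97 and the median width 277 bp. Without the stretch, the difference in the share past q was 0.622 points in place of 3.13, and that at a fold of at least 3 was -0.545 in place of 1.19. It was also below 0 on chromosome 4 alone (-0.379), and that for the background at 2 times the floor was -0.727; those intervals include 0. Groups of at least 4 peaks past q on the short arms numbered 2, also at 3 or more peaks or with other gaps, but their members differed: they held 5 and 8 peaks at gaps of 20 kb, 4 and 7 at 10 kb, and 6 and 9 at 50 kb. The largest group of listed peaks held 19 peaks at 20 kb, 9 at 10 kb and 19 at 50 kb. No replicate could be left out, and a peak of 15 fragments over the floor has a fold of 2.39 with an interval of 1.40 to 3.85. No paired analysis was possible because each group has 1 library.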
